A study of Drosophila melanogaster with 12 samples.

Results

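Enteroblasts that made the activator form of Shavenbaby (Svb) were compared with control enteroblasts, across all measured genes, in 6 of the 12 RNA-seq libraries of the series. Enteroblasts are the undifferentiated daughters of intestinal stem cells in the Drosophila gut, and they mature into absorptive enterocytes. All flies were heterozygous for esg-Gal4, UAS-GFP and for tubGal80TS. In the 3 control libraries the other parent was of the Canton-S strain, and in the 3 SvbACT libraries it supplied UAS-SvbACT::GFP. Virgin females were kept for 3 days at room temperature and 6 days at 29 °C, and were dissected at an age of 9 days. The warm period switched off the Gal80 repressor and so let Gal4 drive the transgenes in escargot-expressing cells. Posterior midguts, from region R3 to region R5, were pooled from batches of more than 20 females and dissociated, and cells with high GFP and large size were sorted. The other groups were enteroblasts with the repressor form, SvbREP, and with a hairpin against svb, 3 libraries each, and SvbREP serves as a second reference. The control lacked the transgene and its own GFP tag, and its second parent was a different strain, so that an effect of Svb activity, of the tag in a sort on GFP, and of strain background cannot be told apart.

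Svb is a zinc finger transcription factor encoded by the ovo locus, which also makes the germline Ovo proteins. It is produced as a large repressor, and the proteasome trims it to a shorter activator. The activator is known in the embryonic epidermis for turning on the genes that shape trichomes, which include regulators of actin, apical matrix proteins and cuticle enzymes. In the adult gut Svb is known to act in stem cells and their progeny.

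The libraries held 3853072 to 7114312 counts in the control and 4279512 to 6153179 in SvbACT. Genes without a read numbered 544, 376 and 481 in control replicates 1, 2 and 3 and 298, 930 and 895 in the SvbACT replicates. SvbACT replicates 2 and 3 thus had more such genes than control replicate 3, which held the fewest counts. The part of this difference in decreases of low-level genes, or in genes read in SvbACT replicate 1 alone, was not tested. Rank correlations between libraries of 1 group were 0.962 to 0.973 in the control and 0.94 to 0.953 in SvbACT. The ovo locus stood at 2.25, 16.3 and 0.279 CPM (read counts relative to the scaled library total) in control replicates 1, 2 and 3 and at 2005, 2037 and 2604 CPM in the SvbACT replicates. All 3 SvbACT libraries lay far above the 3 control libraries. The difference was 8.29 ± 1.01 on the log2 scale (SE, adjusted p = 0.00111), and 10.73 without control replicate 2. Reads of the transgene and of the resident gene fall on the same exons and were not separated. Progenitor genes were present in both groups: the klumpfuss gene klu was at 662 to 899 CPM in the control and 597 to 857 in SvbACT, and zfh2 at 2294 to 3073 and 2598 to 3710. The summed level of 30 progenitor and fate factors was 9473 to 11405 CPM in the control and 9574 to 10454 CPM in SvbACT, and 20 of the 24 tested were below 0 with a median log2 change of -0.20. The gene escargot, whose enhancer gives the Gal4 line its pattern, was not analysed here. The eye colour gene w, which marks many fly transgenes, was at 1686, 1612 and 1919 CPM in the control and 3064, 5204 and 4290 CPM in SvbACT (adjusted p = 0.00992, with up to 0.0569 without control replicates 1 or 2 or SvbACT replicate 2).

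Of 8069 genes tested, 360 (4.46%) had an adjusted p under 0.05 in edgeR's quasi-likelihood test, and these are referred to as called. They split into 154 higher (1.91%) and 206 lower (2.55%) in SvbACT, and these shares are the background for the number called in each gene list. The genes that rose were mostly low in control cells, with a median control level of 15.5 CPM, against 125 CPM for those that fell and 24.2 CPM over all tested genes. Of the genes that rose, 50 had a control mean under 5 CPM and 9 had no read in any control library. Of those that fell, 6 had a control mean under 5 CPM and 5 had no read in any SvbACT library. The increases were also larger: the median log2 change was 1.89 for called increases and -1.39 for called decreases, and 72 increases against 58 decreases passed 2 on the log2 scale. The control level is part of the fold change behind each call, and the filter kept genes expressed in a single group. These contrasts in level and size are therefore set in part by the selection of called genes. The median log2 change over all tested genes was -0.01. The scaling of the libraries largely sets this value, so it cannot show whether the whole profile shifted. In 358 called genes the 3 SvbACT and 3 control libraries did not overlap, a pattern that 23.2% of all tested genes showed. With each of the 6 libraries left out in turn, 146 genes (1.81%), 66 higher and 80 lower, passed in every fit, and the total ranged from 175 without control replicate 1 to 279 without SvbACT replicate 3; it was 185 without control replicate 3, 208 without control replicate 2 and 227 without SvbACT replicate 2.

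**Figure D1:**
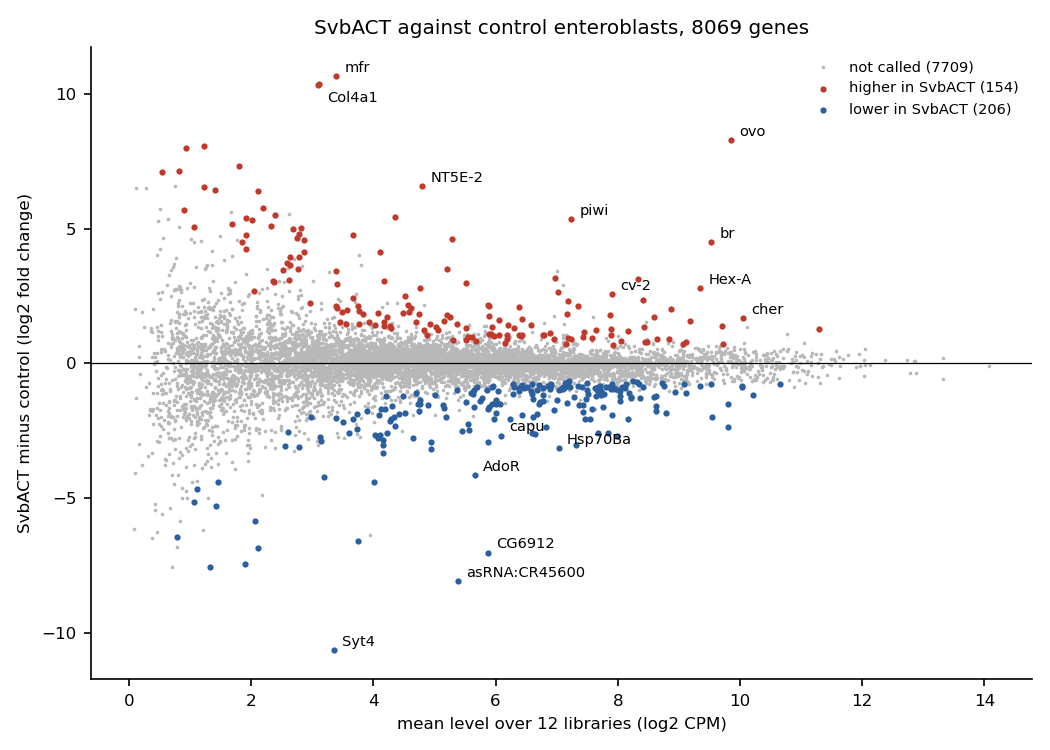
Log2 fold change of SvbACT over control (vertical axis) against the mean level over 12 libraries in log2 CPM (horizontal axis), 1 point per tested gene; red points are the 154 genes called higher, blue points the 206 called lower, grey points the others. The red points reach further from 0 than the blue ones at most levels, and fitted values of genes with no reads in a group, such as Syt4 and mfr, depend on the prior count of the fit.

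The largest increases were of genes almost silent in control enteroblasts. The gene mfr (misfire), known from the breakdown of the sperm membrane after fertilization, had no reads in the 3 control libraries and stood at 51.8, 44.0 and 22.3 CPM in SvbACT. With 3 counts per control library taken as the floor, it was at least 58.9-fold higher. Next to it on chromosome 3L, TrpA1, a cation channel opened by warmth and irritants, went from 0, 0.559 and 0 CPM to 20.0, 17.3 and 5.87 CPM (log2 change 5.76 ± 1.18, adjusted p = 0.00782, with 9.18 without control replicate 2). In the dm6 coordinates of the annotation both lie on the minus strand, TrpA1 from 8894404 to 8905200 and mfr from 8905918 to 8912671. CG34370 was also without reads in the control and reached 51.7, 16.6 and 26.5 CPM, at least 47.3-fold higher. Col4a1, a chain of the basement membrane collagen, was without control reads and at 18.2, 7.37 and 67.2 CPM in SvbACT, at least 46.3-fold higher, and at least 19.1-fold without SvbACT replicate 3. Its partner chain vkg, named after its values were seen, was at 0.749, 1.4 and 1.12 CPM in the control and 8.61, 4.75 and 20.3 CPM in SvbACT, but its adjusted p was 0.0547. For both collagen chains SvbACT replicate 3 was the highest library and replicate 2 the lowest.

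NT5E-2, an enzyme of the family that releases adenosine from AMP, rose from 2.00, 0.838 and 0.558 CPM to 118, 86.5 and 117 CPM (log2 change 6.57 ± 0.48, adjusted p = 1.99e-07, with 7.17 without control replicate 1). CG33181, whose exons overlap those of otu, rose from 0.250, 3.21 and 1.12 CPM to 90.6, 105 and 26.7 CPM (5.42 ± 0.66, with 6.77 without control replicate 2). For both genes every SvbACT library was far above every control library, and CG33181 was highest among the controls in replicate 2. Gbs-76A, a subunit that targets protein phosphatase 1 to glycogen, was at 0, 0.419 and 0 CPM in the control and 9.94, 8.55 and 6.63 CPM in SvbACT, with 41.5 as the ratio of summed levels and 13.9 to 204 as its 95% counting interval. CG30377 had few control reads as well, and its ratio was 104 (28.6 to 868). CG7227 went from 0, 0.977 and 0.279 CPM to 20.0, 20.9 and 11.2 CPM (5.10 ± 0.92, with 6.81 without control replicate 2). These 3 genes also passed in each of the 6 fits that left a library out. piwi, also among the 12 largest increases, is described with the piRNA genes. Lsp1gamma and tRNA:Asp-GTC-2-1 were less stable. The larval storage protein gene Lsp1gamma, at 0, 1.26 and 0.279 CPM against 20.2, 36.8 and 3.41 CPM, had an adjusted p of 0.0449 that rose to 0.154 without control replicate 1, and it passed only without SvbACT replicate 3. tRNA:Asp-GTC-2-1 rested on SvbACT replicate 2, at 23 CPM beside 2.98 and 3.03, and its adjusted p of 0.0272 became 0.149 without that library; it also missed the threshold without any of the control libraries.

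**Figure D2:**
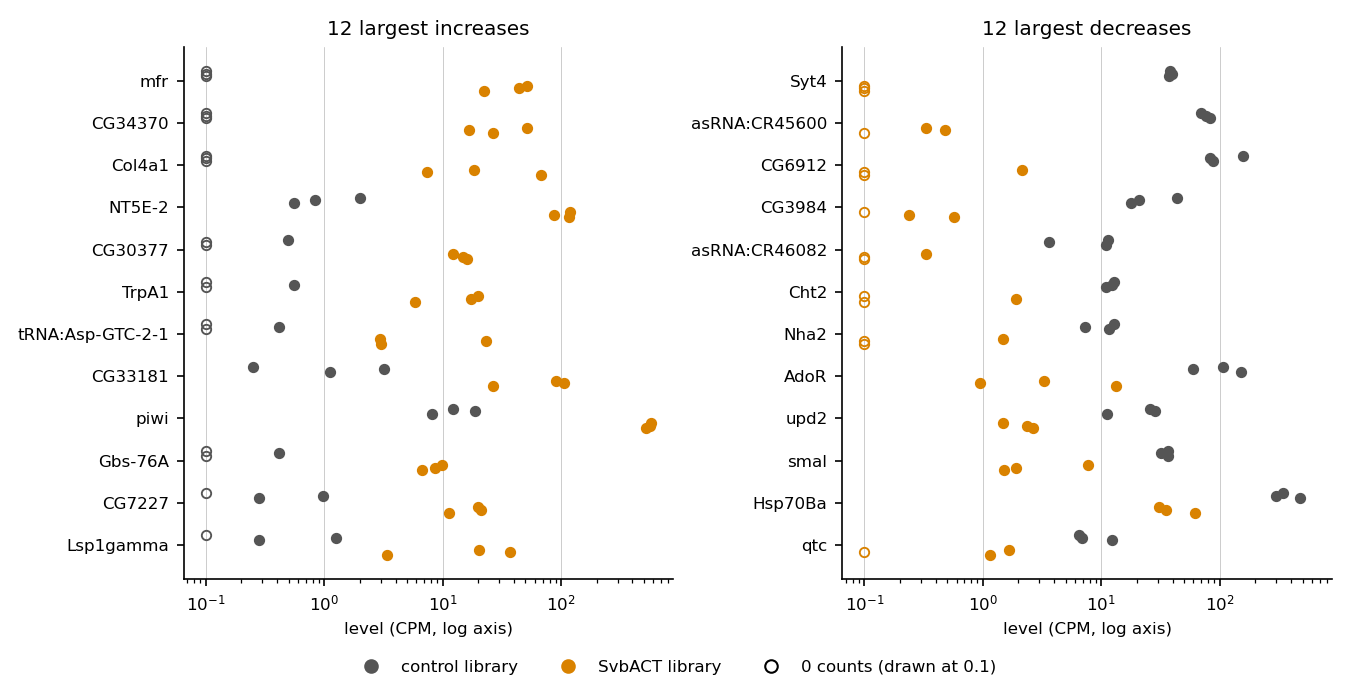
Level in CPM (horizontal, log axis) of the 12 genes with the largest called increase (left) and decrease (right), with 1 point per library, 3 control (grey) and 3 SvbACT (orange); open points drawn at 0.1 had no reads. The groups do not overlap for any of these genes, which the rule for naming them required; most increases start from control levels under 5 CPM.

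The largest decrease was of Syt4, a synaptotagmin that controls vesicle fusion and here also a member of the enteroendocrine list. It was at 38.2, 39.9 and 37.4 CPM in the control and had no reads in the 3 SvbACT libraries, so that it was at least 65-fold lower. A cluster on chromosome 3R between 15135138 and 15140121 came next. Its antisense transcript asRNA:CR45600 fell from 69.9, 77.2 and 82.3 CPM to 0.331, 0.475 and 0 CPM (log2 change -8.08 ± 0.51, adjusted p = 3.72e-08). CG6912 fell from 157, 82.2 and 87.1 CPM to 2.15, 0 and 0 CPM, so that its reads in SvbACT came from replicate 1. CG3984 fell from 43.7, 20.7 and 17.9 CPM to 0, 0.238 and 0.568 CPM. The exons of asRNA:CR45600 overlap those of both genes, and since the use of strand in counting is not given in the sources used here, reads of the 3 genes cannot be told apart. The same holds for AdoR, the adenosine receptor, and asRNA:CR46082 on the opposite strand. AdoR fell from 106, 59.1 and 150 CPM to 3.31, 0.950 and 13.3 CPM (log2 change -4.14 ± 0.63, adjusted p = 0.00226, with -5.50 without SvbACT replicate 3), and asRNA:CR46082 was at 11.5, 3.63 and 10.9 CPM against 0.331, 0 and 0 CPM.

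Among the other large decreases, upd2, a secreted ligand of the JAK-STAT pathway, fell from 25.7, 28.3 and 11.2 CPM to 1.49, 2.38 and 2.65 CPM (log2 change -3.33 ± 0.59, adjusted p = 0.00244). Nha2, a sodium and proton exchanger, was at 12.7, 7.26 and 11.7 CPM and then at 1.49, 0 and 0 CPM. The stress-inducible chaperone gene Hsp70Ba, measured at 29 °C in all flies, fell from 345, 297 and 480 CPM to 30.6, 35.2 and 62.3 CPM. The gene smal fell from 36.7, 31.7 and 36.8 CPM to 7.78, 1.90 and 1.51 CPM (-3.18 ± 0.55, with -4.32 without SvbACT replicate 1). All of these passed in each fit that left a library out. Cht2, a chitinase, at 12.7, 12.4 and 10.9 CPM against 0, 1.90 and 0, passed only without SvbACT replicate 2, with an adjusted p of 0.0775 without SvbACT replicate 3. The gene qtc, at 6.49, 6.84 and 12.3 CPM against 1.66, 0 and 1.14, passed only without SvbACT replicate 1, with 0.114 without control replicate 3.

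Of 25 tested genes of the piRNA pathway and germline, a list that holds ovo itself, 5 rose (20.0%, against 1.91% of all tested genes), and 3 of them, piwi, spn-E and ovo, kept the call with each library left out. Piwi-interacting RNAs guide Argonaute proteins to silence transposons, a system best known from the gonads. The nuclear Argonaute gene piwi rose from 12.2, 18.7 and 8.09 CPM to 575, 559 and 519 CPM (log2 change 5.37 ± 0.31, adjusted p = 3.26e-08), the smallest p of the comparison. All SvbACT libraries were close together and none of the other 3 groups reached a mean above 30.8 CPM. The helicase gene spn-E rose from 4.49, 10.6 and 6.98 CPM to 61.4, 56.1 and 38.6 CPM (log2 change 2.79 ± 0.37, adjusted p = 0.000166). No member of the list fell, 16 were above 0 and 9 below, and the median log2 change was 0.21. The other called members were vret, a Tudor-domain cofactor, and shu, a cochaperone, with log2 changes of 2.15 and 1.46. vret lost the call without control replicate 1 (adjusted p = 0.0812) and without control replicate 3, and shu lost it without any 1 of the 6 libraries (up to 0.181). Without control replicate 2 the log2 change of vret was 3.11. The exons of piwi overlap those of SCAR.

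The called members of the signalling pathway lists included ligands, a transducer and a hormone target. The share called was 20.0% in the Dpp list, 14.3% in the Wingless list, 12.5% in the JNK list and 11.1% in the EGFR list. Over all tested genes it was 4.46%. In the JAK-STAT, insulin, ecdysone, Hippo and Notch lists, with 1 called member each, it was 8.33%, 5.88%, 5.56%, 5.56% and 5.26%. In the list of the ecdysone pathway, 1 of 18 members was called: broad (br), an early target of the steroid hormone that encodes zinc finger proteins. It rose from 115, 63.4 and 63.9 CPM to 2729, 1722 and 991 CPM (log2 change 4.49 ± 0.41, adjusted p = 1.55e-05). Every SvbACT library was far above every control library, replicate 1 most. The receptor genes and the other 17 members were not called.

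In the Dpp pathway, the fly's BMP signal, 2 of 20 members rose and 2 fell. The extracellular regulator crossveinless 2 (cv-2), which binds BMP ligands, rose from 101, 82.9 and 88.2 CPM to 515, 568 and 540 CPM (log2 change 2.58 ± 0.19, adjusted p = 1.99e-07). The ligand gene dpp was at 0, 2.09 and 0 CPM in the control and at 49.0, 16.9 and 5.68 CPM in SvbACT, and its adjusted p was 0.0272. The pathway's transducer gene Mad fell from 801, 547 and 625 CPM to 248, 139 and 190 CPM (log2 change -1.77 ± 0.24, adjusted p = 0.000196). The glypican gene dlp, which also binds Wingless, fell by 0.86 on the log2 scale. cv-2 and Mad passed in every fit with a library left out. dpp, whose log2 change was 4.79 and 9.90 without control replicate 2, was past the threshold only without control replicate 2 or SvbACT replicate 3 (up to 0.147 without SvbACT replicate 1), and dlp only without control replicate 2 or SvbACT replicate 3 (up to 0.0997 without control replicate 1).

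Several ligands, receptors and modifiers of other pathways fell. Fringe (fng), which glycosylates Notch and sets its preference among ligands, was the called member of 19 in the Notch list, at 293, 280 and 352 CPM against 96.2, 101 and 106 CPM (log2 change -1.61 ± 0.24, adjusted p = 0.000657). upd2 was the called member of 12 in the JAK-STAT list. In the EGFR list of 27, the neuregulin-like ligand vn fell by 1.70 and the ubiquitin ligase gene Cbl, a brake on receptors, fell by 0.82, whereas the rhomboid gene rho-4 rose by 0.95 on the log2 scale. In the Wingless list of 21, the receptor gene fz fell by 1.58, the feedback inhibitor gene nkd by 0.76 and dlp as above. In the JNK list of 16, the transcription factor gene kay (Fos) fell by 0.76, and Mmp1, a metalloprotease gene known as a target, fell by 2.58. The insulin list of 17 held 1 decrease, that of the translation inhibitor gene Thor, by 0.87. Among these, fng, upd2, rho-4 and Mmp1 kept the call with each library left out. Without control replicate 2 the adjusted p of vn was 0.0608 and it also missed without SvbACT replicate 1. Cbl reached 0.0977 and fz 0.253 without control replicate 1, kay 0.123 and Thor 0.141 without control replicate 3, and nkd 0.221 without SvbACT replicate 2; fz, nkd and Thor missed without any 1 of the 6 libraries, and kay and Cbl without most.

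Of 13 tested genes of cell death, 3 fell and none rose, which is 23.1% against 2.55% of all tested genes lower, but none of these calls held with each library left out. They were the death activator gene hid, the effector caspase gene Decay and the caspase inhibitor gene Diap1. Of the 13 members 9 were below 0 and 4 above, with a median log2 change of -0.29. hid went from 57.7, 37.8 and 54.4 CPM to 21.5, 5.70 and 13.4 CPM (adjusted p = 0.0254). Decay went from 111, 109 and 126 CPM to 49.3, 47.0 and 59.1 CPM (adjusted p = 0.0264). Diap1, which the Hippo pathway controls and which opposes hid, went from 382, 360 and 376 CPM to 231, 240 and 246 CPM (adjusted p = 0.0338). In all 3 genes the groups were apart, and activators and an inhibitor of death moved the same way. The gene hid missed without control replicates 1 or 3 and without SvbACT replicates 2 or 3 (up to 0.115), and Decay and Diap1 missed in all 6 (up to 0.119 and 0.145).

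The actin cytoskeleton changed in both directions, with 4 increases and 4 decreases among 55 tested genes and a median log2 change of -0.16. These are 14.5% of the list, against 4.46% of all tested genes. The nucleator genes moved apart. The formin gene dia rose from 140, 151 and 159 CPM to 314, 378 and 381 CPM (log2 change 1.26 ± 0.18, adjusted p = 0.00038). Arp2, of the complex that branches filaments, rose from 200, 201 and 213 CPM to 506, 480 and 491 CPM (1.27 ± 0.19, adjusted p = 0.000439). capu, a formin gene known from the oocyte, fell from 141, 105 and 186 CPM to 21.2, 21.4 and 24.6 CPM (-2.68 ± 0.31, adjusted p = 3.71e-05). The filamin gene cher, whose product crosslinks filaments, rose from 751, 758 and 930 CPM to 2477, 2709 and 2661 CPM. Zasp52, which links actin to integrin sites and to the Z disc of muscle, fell from 446, 535 and 493 CPM to 89.1, 94.8 and 169 CPM (-2.06 ± 0.24, adjusted p = 4.06e-05), and LIMK1, the kinase of cofilin, fell by 1.23. These 6 genes passed with each library left out. The other called members were mwh, a formin-like gene, higher by 2.12, and the myosin gene ck (crinkled), lower by 1.11, with adjusted p-values up to 0.118 without control replicate 1 and 0.174 without SvbACT replicate 2. Both missed in 5 or more of the 6 such fits.

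mwh is also 1 of the 8 tested genes of a list of epidermal targets of Svb, the genes through which it shapes trichomes. It stood at 4.99, 5.17 and 6.98 CPM in the control and at 26, 25.7 and 22.5 CPM in SvbACT (adjusted p = 0.0262). cyr, a zona pellucida domain protein of the apical matrix, fell from 34.7, 17.2 and 26.8 CPM to 9.11, 9.03 and 6.06 CPM (adjusted p = 0.0221). The 6 other tested targets were not called, and the median over the 8 was -0.80, with 2 above 0. Without control replicate 1 the adjusted p of mwh was 0.118 and that of cyr 0.139, and each passed in 1 of the 6 fits that left a library out.

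The lists of matrix and adhesion genes held a few strongly changed members. Of 19 genes of the basement membrane and its turnover, Col4a1 rose while Mmp1 and the laminin gene wb fell, 15.8% called against 4.46% of all tested genes. Mmp1, a protease that cleaves matrix proteins, was at 333, 260 and 378 CPM in the control and 32.8, 74.4 and 56.1 CPM in SvbACT (log2 change -2.58 ± 0.28, adjusted p = 2.25e-05). wb was at 404, 373 and 504 CPM against 141, 208 and 194 CPM (-1.24 ± 0.22, adjusted p = 0.00241). Every SvbACT library was below every control library for both genes. Of 59 junction and cell adhesion genes, 3 rose and 3 fell, 10.2% called. CadN2, an N-cadherin gene, rose from 0.499, 0.419 and 0.837 CPM to 13.4, 24.2 and 6.63 CPM (4.66 ± 0.81, adjusted p = 0.00221). beat-IIa, of an immunoglobulin family of axon guidance, fell from 55.2, 34.6 and 36 CPM to 5.46, 7.37 and 9.09 CPM (-2.52 ± 0.28, adjusted p = 3.26e-05). DIP-lambda (2.26), Cad87A (1.04), dpr10 (-2.34) and Fas3 (-2.75) were called with these log2 changes, but each missed in 4 or 5 of the 6 fits with a library left out, with adjusted p-values up to 0.158 and 0.140 without control replicates 3 and 1, 0.133 without SvbACT replicate 3 and 0.124 without control replicate 2. None of the 34 septate junction and polarity genes was called, with 3 at an unadjusted p under 0.05 and a median of -0.24.

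The 28 axon guidance genes held 4 decreases and no increase, 14.3% against 2.55% of all tested genes lower, with 18 members below 0, 10 above and a median log2 change of -0.21. The Wnt-binding receptor gene drl fell from 29.2, 25 and 24.0 CPM to 3.31, 7.37 and 1.89 CPM (log2 change -2.66 ± 0.44, adjusted p = 0.00159, with -3.28 without SvbACT replicate 2), and the secreted semaphorin gene Sema2b from 74.1, 70.1 and 41.3 CPM to 16.6, 22.6 and 16.7 CPM (-1.74 ± 0.28, adjusted p = 0.00121). The phosphatase gene Ptp99A fell by 1.13 and Sema5c by 0.88, but Ptp99A missed the threshold without control replicate 1 (0.0713) or SvbACT replicate 2, and Sema5c without any library but control replicate 2 (up to 0.195). Of 20 tetraspanins, small membrane proteins that organize receptors, 2 fell and none rose, 10.0% against 2.55% of all tested genes lower. lbm fell by 2.59 (and by 3.29 without SvbACT replicate 3) and Tsp42El by 1.62, the latter with an adjusted p of 0.119 without SvbACT replicate 2.

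Genes that make and sense adenosine changed at both ends. Besides the rise of the 5'-nucleotidase gene NT5E-2 and the fall of the receptor gene AdoR, the nucleotide phosphatase gene NTPase fell from 75.6, 85.7 and 98.2 CPM to 50.3, 39.7 and 45.6 CPM (adjusted p = 0.0134, with up to 0.0824 without control replicates 2 or 3 or SvbACT replicate 2). These were the 3 called of 17 genes of adenosine and purines, 17.6% against 4.46% of all tested genes. Of 38 G protein coupled receptors, 5 fell and 1 rose, 15.8% called, around a median log2 change of -0.54. The octopamine receptor gene Octbeta2R fell from 112, 85.5 and 131 CPM to 43.7, 20.9 and 50.2 CPM (-1.51 ± 0.29, adjusted p = 0.00508) and, like AdoR, passed with each library left out. In a fit of only the control and SvbACT libraries AdoR missed the threshold, with an adjusted p of 0.0619. mthl10 (-0.77), mthl4 (-1.08) and fz were lower, and Tre1, known from the migration of germ cells, was higher by 0.97. Without control replicate 1, mthl10 had an adjusted p of 0.130, mthl4 of 0.160 and Tre1 of 0.0746, and Tre1 also missed without control replicate 2 and the others in 5 of the 6 fits.

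Ion channels and transporters changed in both directions. Of 55 channels 2 rose and 4 fell, and of 51 solute transporters 2 rose and 3 fell. These are 10.9% and 9.8% called, against 4.46% of all tested genes. The voltage-gated potassium channel gene KCNQ fell from 372, 343 and 372 CPM to 99.7, 116 and 152 CPM (log2 change -1.56 ± 0.25, adjusted p = 0.000931). The mechanically gated channel gene Piezo fell from 25.5, 29.7 and 23.7 CPM to 5.46, 5.23 and 11.4 CPM (-1.84 ± 0.31, adjusted p = 0.00169). The cotransporter gene Ncc69, which moves sodium, potassium and chloride into cells, fell from 215, 285 and 261 CPM to 32.5, 46.1 and 15.5 CPM (-3.02 ± 0.43, adjusted p = 0.00106). In each of these the highest SvbACT library was below the lowest control library. The pacemaker channel gene Ih rose by 0.81 and the chloride channel gene Best1 fell by 0.88, and they reached 0.101 without control replicate 2 and 0.158 without control replicate 3. nrv3, a subunit of the sodium pump, rose from 3.74, 5.59 and 4.19 CPM to 44.7, 34.0 and 36.9 CPM (3.07 ± 0.55, adjusted p = 0.00297).

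In metabolism a gene of the first step of glycolysis rose and 5 genes of the respiratory chain fell. The hexokinase gene Hex-A rose from 263, 263 and 243 CPM to 2072, 1362 and 1916 CPM (log2 change 2.80 ± 0.24, adjusted p = 1.46e-06). It was the sole increase among 18 genes of glycolysis, of which 15 were above 0 with a median of 0.40. Pdhb, a subunit of the enzyme that feeds pyruvate into mitochondria, fell by 1.02 (adjusted p = 0.00757, and 0.0516 without control replicate 2). Of 69 genes of the respiratory chain and ATP synthase, 5 fell and none rose: ATPsynC, ATPsynbeta, SdhB, Cyt-c1 and ND-30, by 0.84, 0.87, 0.76, 0.72 and 0.82. These are 7.25% of the list, and 2.55% of all tested genes were lower. The list as a whole leaned the same way, with 60 of 69 members below 0 and a median of -0.44, and its summed level was 7485 to 9296 CPM in the control and 5416 to 6019 CPM in SvbACT. None of the 5 passed with every library left out, and their adjusted p-values rose to between 0.148 and 0.200, ND-30 without control replicate 1 and the others without SvbACT replicate 2. The genes of the mitochondrial ribosome had 58 of 73 members below 0 but none was called, with 6 at an unadjusted p under 0.05. The 17 genes of the vacuolar proton pump had a median of -0.45 and none called, with 5 at an unadjusted p under 0.05.

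Of 41 genes of lipid storage and synthesis, 2 rose and 5 fell, 17.1% called against 4.46% of all tested genes. AcCoAS, which makes acetyl-CoA from acetate, fell from 26.5, 15.9 and 30.7 CPM to 4.64, 6.65 and 5.11 CPM (log2 change -2.15 ± 0.40, adjusted p = 0.00409), and passed with each library left out. The lipase gene bmm, which breaks down stored fat, fell from 211, 238 and 250 CPM to 73.5, 49.2 and 114 CPM (adjusted p = 0.0218). whd, the carnitine transferase of fatty acid import, fell by 0.99, Lpin, a phosphatidate phosphatase, by 0.89, and Agpat2 by 1.55. LpR2, a lipophorin receptor, rose by 1.34 and the desaturase gene Desat1 by 0.70. Those other than AcCoAS depended on single libraries: the adjusted p reached 0.0924 for bmm without SvbACT replicate 2, 0.0833 for whd, 0.202 for Agpat2 and 0.0678 for LpR2 without control replicate 1 (LpR2 also missed without control replicate 3 and SvbACT replicate 2), and 0.113 for Lpin and 0.110 for Desat1 without control replicate 3.

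Detoxification genes were called in both directions. Of 25 glutathione S-transferases, which conjugate reactive compounds to glutathione, 4 rose and 1 fell, 20.0% called against 4.46% of all tested genes, with 13 members above 0, 12 below and a median log2 change of 0.03. GstT4 rose from 7.24, 14.1 and 12.6 CPM to 154, 117 and 117 CPM (log2 change 3.50 ± 0.35, adjusted p = 8.72e-06). GstD1 rose from 172, 207 and 128 CPM to 423, 401 and 357 CPM (1.22 ± 0.22, adjusted p = 0.00241). GstS1 rose from 23.5, 13.3 and 15.9 CPM to 36.6, 48.0 and 45.4 CPM (1.31 ± 0.27, adjusted p = 0.00722). These 3 passed with each library left out, while GstD3 (1.55) and the omega-class gene GstO3 (-0.81) reached adjusted p-values of 0.113 without control replicate 3 and 0.191 without SvbACT replicate 2. Gclc, the enzyme that starts glutathione synthesis, moved the other way, from 254, 238 and 256 CPM to 128, 87.2 and 136 CPM (-1.09 ± 0.22, adjusted p = 0.00575). Of 19 UDP-glycosyltransferases 2 rose and 4 fell, 31.6% called against 4.46% of all tested genes, with 10 at an unadjusted p under 0.05. Of the 19, 7 were above 0 and 12 below, with a median of -0.45. Ugt49B1 rose from 0.998, 1.26 and 2.51 CPM to 36.9, 28.0 and 62.7 CPM (4.76 ± 0.69, adjusted p = 0.000407), and was the member whose call did not depend on any 1 library. Of 50 cytochrome P450 genes 2 fell and none rose, 4.0% called against 4.46% of all tested genes. Cyp12a4 fell by 3.03 (adjusted p = 0.00529, and by 3.76 without SvbACT replicate 1). Cyp6a20 fell by 2.03 (adjusted p = 0.0156, with up to 0.120 without control replicate 3 or SvbACT replicate 2).

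Lists of growth and division genes had medians above 0 and few called members. Of 47 mitosis genes 4 rose and none fell, which is 8.51% against 1.91% of all genes higher. The called members were the condensin genes glu and barr, the microtubule polymerase gene msps and the spindle gene mud. msps was at 300, 340 and 340 CPM against 621, 508 and 552 CPM (log2 change 0.78 ± 0.17, adjusted p = 0.0134), and glu at 43.7, 40.4 and 38.8 CPM against 92.7, 78.4 and 79.3 CPM (1.03 ± 0.25, adjusted p = 0.0239). Of the 47 members 43 were above 0 with a median of 0.84, and their summed level was 1671 to 2315 CPM in the control and 2638 to 3311 CPM in SvbACT. The number called was 0 without control replicate 1, 1 without control replicate 3, 2 without SvbACT replicate 1, and 12 once replicate was a block. The 35 DNA replication genes had a median of 0.41 and the 78 cytoplasmic ribosomal protein genes of 0.33, with 76 of the latter above 0, and none of either list was called. At an unadjusted p under 0.05 stood 6 and 11 of them. The 30 proteasome genes had a median of 0.10 and none called, with 2 at an unadjusted p under 0.05. A linker histone gene, BigH1, known from early germ cells and embryos, was at 1.5, 1.54 and 3.07 CPM against 19.0, 11.2 and 19.1 CPM (adjusted p = 0.0380, and up to 0.158 without any 1 library).

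**Figure D3:**
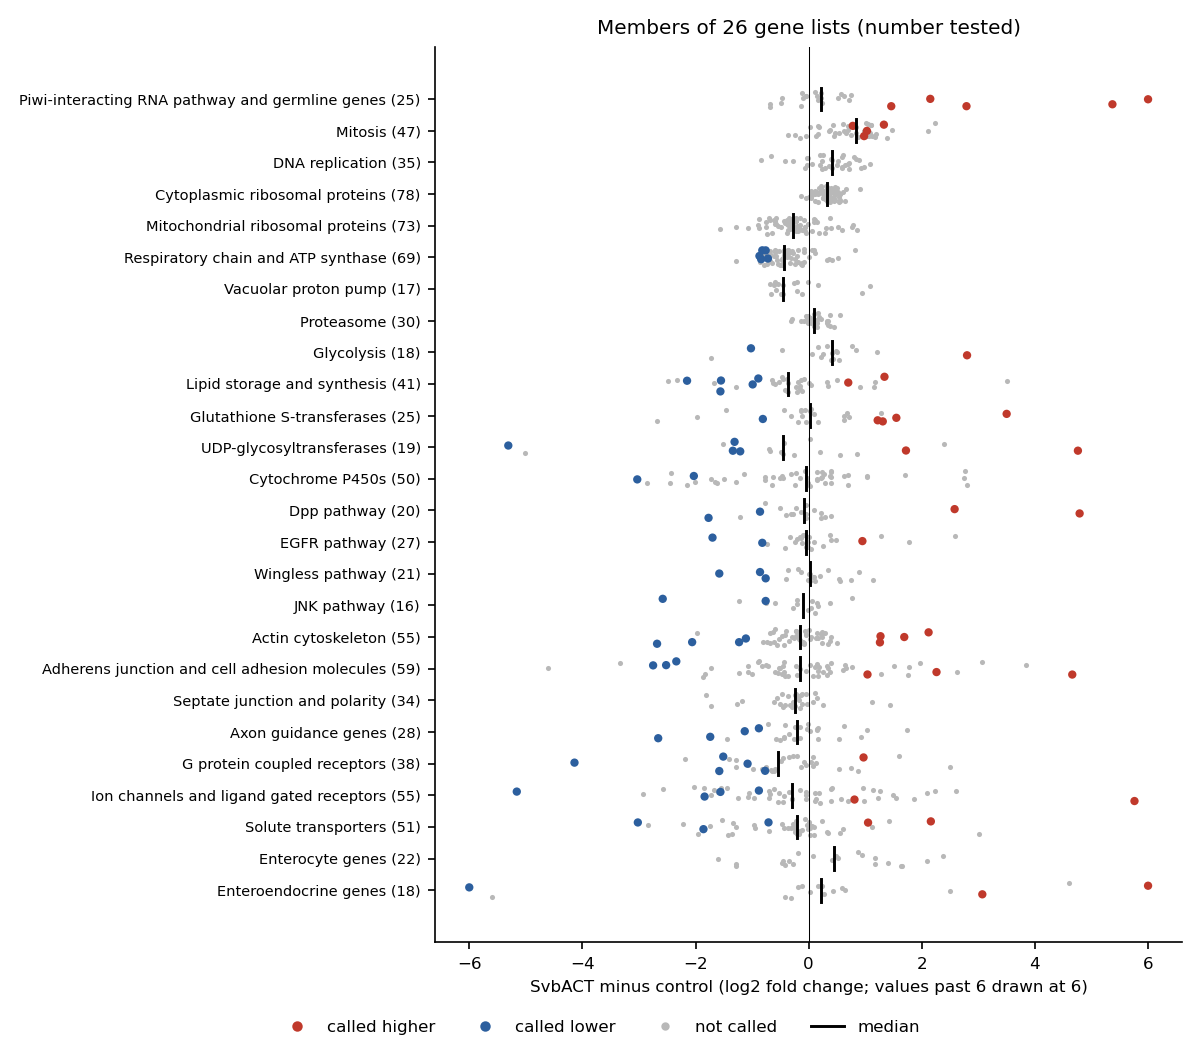
Log2 fold change of SvbACT over control (horizontal axis, values past 6 drawn at 6) for the tested members of 26 gene lists (rows, with the number tested); coloured points are called members, grey points the others, and the black bar is the list's median. Medians to the right of 0 include those of the mitosis (0.84), DNA replication (0.41), glycolysis (0.40) and cytoplasmic ribosomal protein (0.33) lists. Medians to the left include those of the respiratory chain (-0.44), UDP-glycosyltransferase (-0.45) and G protein coupled receptor (-0.54) lists. Some lists, such as that of the actin cytoskeleton, hold called members on both sides of 0, and others hold them on 1 side or hold none.

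In the lists of this paragraph 0% to 16.7% of the tested members were called, against 4.46% of all tested genes. In the list of synaptic and vesicle genes, 35 in number, Syt4 fell while Prosap, the scaffold gene Shank of synapses, rose from 29.7, 40.2 and 43.5 CPM to 342, 334 and 348 CPM (log2 change 3.17 ± 0.29, adjusted p = 3.15e-06). The homeotic gene Abd-B, the called member among 17 homeobox genes, fell from 11.2, 6.98 and 11.7 CPM to 1.32, 0.475 and 2.46 CPM (-2.75 ± 0.49, adjusted p = 0.00263). PGRP-LA, of the peptidoglycan recognition family, fell from 91.4, 100 and 87.9 CPM to 37.9, 45.1 and 27.1 CPM (-1.34 ± 0.27, adjusted p = 0.00757), and pirk, an inhibitor of the Imd pathway on the same list of 12, rose by 0.72. Prosap, Abd-B and PGRP-LA kept the call with each library left out. The ER chaperone gene Hsc70-3 rose by 0.74 beside the fall of Hsp70Ba, among 28 chaperones. Of 20 redox genes, the peroxidase gene Irc rose by 3.94 and the metallothionein gene MtnA fell by 1.84 beside Gclc. Of 15 sarcomere genes, Strn-Mlck rose by 1.88 and Zasp52 fell, and of 13 ABC transporters, w rose and Mrp4 fell by 1.54. The chitin list of 22 held the fall of Cht2 and the rise of the cuticle protein gene Cpr72Ec, by a ratio of 120 with a counting interval of 21.1 to 4760. The integrin subunit gene Itgbn fell by 0.82 in a list of 19. The genes given here by a log2 change or ratio alone for the first time lost the call when some library was left out: the adjusted p rose to 0.140 for Hsc70-3, 0.110 for Itgbn without control replicate 3, to 0.119 for Irc and 0.143 for pirk without control replicate 2, to 0.189 for MtnA, 0.0997 for Strn-Mlck and 0.0893 for Cpr72Ec without control replicate 1, and to 0.057 for Mrp4 without SvbACT replicate 1. None of 12 serpins and none of 6 clip-domain and other serine proteases was called, with 4 and 2 at an unadjusted p under 0.05.

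Among the neighbouring cell types, the enteroendocrine list held called members and the enterocyte list held none. Of the 24 tested progenitor factors 1 was called: Hnf4, a nuclear receptor of lipid metabolism, fell from 348, 334 and 329 CPM to 195, 179 and 190 CPM (adjusted p = 0.0105, with up to 0.0647 without control replicate 1 or SvbACT replicate 2). None of 22 enterocyte genes was called, with 3 at an unadjusted p under 0.05, and neither was any of 42 digestive enzyme genes, also with 3. Their summed enterocyte level was 609 to 957 CPM in the control and 478 to 978 CPM in SvbACT. Of 18 enteroendocrine genes 3 were called, 16.7% against 4.46% of all tested genes, with 6 at an unadjusted p under 0.05. Of the 18, 12 were above 0 and 6 below, with a median log2 change of 0.22. Syt4 fell and nrv3 rose. The peptide hormone gene NPF was without reads in the control and at 14.2, 4.51 and 0.379 CPM in SvbACT (adjusted p = 0.0410, passed only without SvbACT replicate 3, and 0.147 without SvbACT replicate 1). The defining factor of that cell type, pros, was at 3.63 to 8.10 CPM and 0.950 to 7.57 CPM and was not called.

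Markers of tissues around the gut had reads in both groups. Summed levels in control and SvbACT were 98.1 to 197 and 52.3 to 72.5 CPM for 11 visceral muscle genes and 29.9 to 75.0 and 8.61 to 26.8 CPM for 6 tracheal genes. They were 446 to 536 and 378 to 424 CPM for 8 genes of neurons and glia, 373 to 628 and 322 to 411 CPM for 4 hemocyte genes, and 664 to 782 and 462 to 495 CPM for 8 fat body genes. Single genes made up most of the tracheal, hemocyte and fat body sums, and in the control most of the muscle sum. In the muscle sum vn was at 66.4 to 117 CPM in the control and 20.5 to 31.8 CPM in SvbACT. In the tracheal sum the ligand gene bnl was at 24.6 to 71.6 and 6.79 to 19.0 CPM, and was not called (adjusted p = 0.0773). The other tested genes of that sum, serp and salm, were at 0.419 to 2.5 CPM in the control and 0 to 3.33 CPM in SvbACT. The fall of the tracheal sum is thus that of bnl. The neuron and glia sum was mostly that of moody, elav and nrv2. moody was at 242 to 271 and 139 to 203 CPM, elav at 102 to 169 and 124 to 174 CPM, and nrv2 at 67.8 to 87.9 and 47.5 to 79.4 CPM. ChAT, nSyb, onecut, brp and fne were at 4.89 CPM or less in every library of both groups. The scavenger receptor gene crq was at 348 to 599 and 290 to 393 CPM of the hemocyte sum, while Hml, a defining hemocyte gene, had no reads. The fatty acid synthase gene FASN1 was at 651 to 779 and 433 to 465 CPM of the fat body sum and was not called (log2 change -0.63, adjusted p = 0.239). The other 4 tested fat body genes were above 0, among them Lsp1gamma, called higher as above, and the median over the 5 was 0.91. Of the called genes, vn stands on the muscle list, where 1 of 8 tested genes was called. Of those 8 genes 7 were below 0, sls among them at a log2 change of -0.02, and 1, wupA, was above 0. Mhc was at 6.99 to 19.8 CPM in the control and 1.99 to 7.39 CPM in SvbACT, and wupA at 0 to 2.79 and 4.92 to 11.1 CPM. Fewer cells of a type in a sort and less RNA per cell cannot be told apart in these pooled samples, and the part of muscle or tracheal cells in the decreases was not tested. No marker of hemocytes (3 tested), trachea (3), neurons and glia (7) or Malpighian tubule and hindgut (5) was called, with 0, 1, 1 and 3 at an unadjusted p under 0.05.

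Of 213 tested antisense transcripts, 5 fell and none rose, which is 2.35% against 2.55% of all genes lower, and 2 of the 5 kept the call with each library left out. Of the 213, 154 were below 0 with a median log2 change of -0.59. The part in this lean of the larger number of genes without reads in SvbACT replicates 2 and 3 was not tested. Of 118 long non-coding RNAs 4 rose and 1 fell, 4.24% called against 4.46% of all tested genes. lncRNA:CR44953 rose from 4.49, 3.91 and 1.12 CPM to 55.8, 57.5 and 59.1 CPM (log2 change 4.14 ± 0.58, adjusted p = 0.000322), and lncRNA:CR44779 from 35.4, 32.8 and 46.0 CPM to 123, 101 and 165 CPM (1.77 ± 0.24, adjusted p = 0.000208). Both kept the call with each library left out, as did no other called gene of that list. Of 65 small nucleolar, transfer and other small RNA genes 1 rose and 1 fell, the latter mir-956, and 3.08% were thus called. Of the 65, 56 were above 0 with a median of 1.42, but the summed levels of the groups overlapped. These were 12407 to 27840 CPM in the control and 16301 to 28767 CPM in SvbACT. The increase was that of tRNA:Asp-GTC-2-1. A further transfer RNA gene, mt:tRNA:Ile-GAT of the mitochondrial genome, stands outside that list and brings the called transfer RNA genes to 2 of 37; it had no control reads, was at 1.16, 7.13 and 3.41 CPM in SvbACT, and passed in 1 of the 6 fits with a library left out (adjusted p = 0.0467, up to 0.144 without control replicate 2). By chromosome, the X held 39 increases, ovo included, among 1365 tested genes, 2.86% against 1.91% over all genes, and 19 decreases, 1.39% against 2.55%. On the arms 2L, 2R, 3L and 3R 1.56% to 2.03% of genes were higher and 2.58% to 3.32% lower.

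SvbACT was also set against the 3 SvbREP libraries within the common model, a comparison that asks whether the forms differ in their effect over the same controls. There, 582 genes (7.21%) were called, with 285 (3.53%) higher and 297 (3.68%) lower in SvbACT. The ovo locus was at 2005, 2037 and 2604 CPM in SvbACT and at 1111, 1438 and 1751 CPM in SvbREP. Every SvbREP library was thus below every SvbACT library, but the difference was not called (log2 difference 0.63, adjusted p = 0.723). That adjusted p does not show that the levels were equal. Of the 154 genes higher than control in SvbACT, 97 were also higher than in SvbREP, and of the 206 lower genes, 125 were also lower. The comparisons share the SvbACT libraries, so these counts are not independent of the first test.

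piwi, at a mean of 8.41 CPM in SvbREP, differed by 6.02 on the log2 scale (adjusted p = 6.35e-09), br by 5.18 (adjusted p = 2.83e-06) and Hex-A by 3.52 (adjusted p = 5.54e-08). cher, at 187 CPM in SvbREP, below its control level, differed by 3.80 (adjusted p = 9.4e-08), and dia, at 134 CPM, by 1.42 (adjusted p = 6.78e-05). Mmp1, at 411 CPM in SvbREP, differed by -2.92 (adjusted p = 2.98e-06), and Piezo, at 139 CPM, by -4.23 (adjusted p = 1.67e-07). For these genes the activator libraries stood apart from both the control and the repressor form. LIMK1 lay in between, at 51.8 CPM in SvbREP, and was lower than control in SvbACT yet higher than in SvbREP by 1.28 (adjusted p = 0.00111).

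Other genes were changed in SvbACT with no called difference from SvbREP. Syt4 had a mean of 0.202 CPM in SvbREP, CG6912 of 1.62 CPM and CG3984 of 0.759 CPM, all far under their control levels. Hsp70Ba was at 47.5 CPM in SvbREP (log2 difference -0.18, adjusted p = 0.875) and KCNQ at 130 CPM (-0.09, adjusted p = 0.899). GstS1 was at 73.8 CPM, above both other groups, and its difference of -0.77 was not called (adjusted p = 0.0852). An adjusted p above 0.05 does not show that the forms act alike on these genes. In the libraries with the hairpin, which carry no Svb transgene, Hsp70Ba was at 58.3 CPM, Syt4 at 0.736 CPM and Mmp1 at 27.1 CPM on average, so that low levels of these genes were not seen in SvbACT alone. Nor was the high level of br, which stood at 1120, 766 and 1120 CPM with the hairpin, above every control library. For piwi, Hex-A, cher and dia the hairpin means of 30.8, 408, 620 and 159 CPM were below every SvbACT library.

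**Figure D4:**
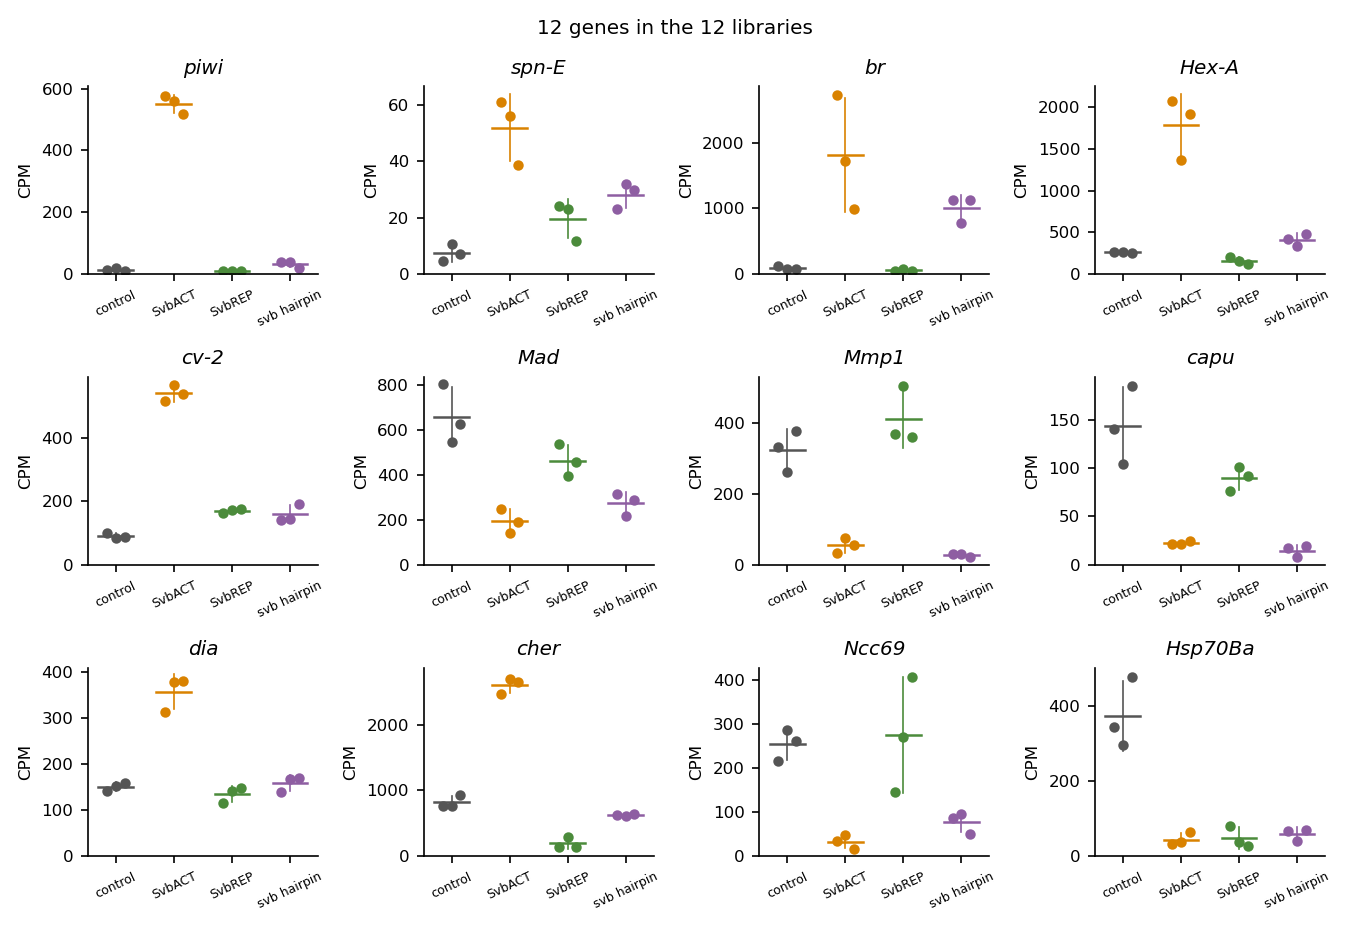
Level in CPM (vertical axes, from 0) of 12 genes in the 4 groups of 3 libraries, with 1 point per library, a bar at the mean and a vertical line of 1 SD on each side. The SvbACT points of piwi, Hex-A, cv-2 and dia lie above all points of the other groups, br is high in SvbACT and the hairpin group, Mmp1 and capu are low in SvbACT and the hairpin group, and Hsp70Ba is high in the control.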

How the data were processed

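Sorted enteroblasts of 4 groups, 3 libraries each, were sequenced as single reads of 100 nt from a low-input total RNA kit, per the labels' protocols. Replicates came from different days, per the series' design text. The submitters' processing notes name STAR 2.5.2b, HTSeq 0.6.0, FastQC 0.11.5, edgeR and the dm6 build; the annotation, the strand setting and the filter that chose the genes are not given in the sources used here. The authors deposited whole-number read counts for 8802 genes. The deposited table also holds the authors' log2 fold changes, their p-values, and a call per gene, a score of 1, 0 or -1; of these only the calls were compared with the results, and the authors' table calls 575 genes in this comparison, among them all 360 called here, with the same sign.

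Only counts were analysed, with edgeR 4.0.16 in R 4.3.3: filterByExpr by group left 8069 genes, libraries were scaled by TMM, and the 12 libraries entered 1 model with a coefficient for each of the 4 groups (glmQLFit, robust). SvbACT was tested against control and against SvbREP with glmQLFTest (quasi-likelihood), p-values adjusted by Benjamini-Hochberg over the 8069 genes at a threshold of 0.05. Each SE was derived from the F statistic. CPM uses TMM-scaled totals. The floor is 3 counts per library, 0.419 to 0.837 CPM in the control and 0.497 to 0.713 CPM in SvbACT; floors and 95% intervals of ratios cover counting error only. The scripts were tested on simulated counts. Ensembl release 115 (BDGP6.54) gave symbols and dm6 coordinates, and named 8686 genes. Exons of 136 called genes overlap another gene's, and reads shared between overlapping genes may be misassigned.

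The 64 lists rest on general knowledge. Lists, members and rules were chosen with earlier results of these data known. Named genes are ovo, the 12 largest called increases and decreases with a symbol, a mean log2 CPM of 2 or more and groups that do not overlap, and called list members, up to 6 per list by smallest p; others are said to have been chosen after their values were seen. A planned search of promoters for a Svb motif was not run, and no sequence was used here. Alternatives were other scalings, filters, tools, fits and libraries left out.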

Additional observations from a re-analysis of the deposited data

How the results depend on the processing

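The 360 genes called against control became 616 with DESeq2 1.42.0 and 599 with edgeR's likelihood ratio test, which shared 359 and 360 of them, and 81 when a log2 change of 1 was tested against. With a library of either group left out the number ranged from 175 to 279. Other scalings, filters, the fit without robust estimation, the fit of the 2 groups alone, and the fit without ovo or without the shallowest SvbREP library gave 336 to 509, and scaling moved the median of all genes from -0.01 to at most 0.04. The 582 genes called against SvbREP became 340 in a fit of those 2 groups alone and 152 against a log2 change of 1, and 355 to 599 with a library left out. The replicate number was not used to pair libraries, because the correlations of same-numbered libraries' deviations were 0.0717, 0.0186 and 0.106; with it as a replicate block, 500 genes were called against control, 358 of them shared, and 685 against SvbREP. No named gene changed sign in any fit. The most frequent losses were without control replicate 1, where 81 named genes missed the threshold, and against a log2 change of 1, where 109 did; the fit of the 2 groups alone lost 13. Depth limits genes near the floor, where a single library can set the fold.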

Other observations

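The genes in these paragraphs were chosen after their values were seen, and their values are a description. They were picked because they were called, and no count over their pathways was made. The phospholipase C gene norpA was at 149, 129 and 139 CPM in the control and 350, 297 and 283 CPM in SvbACT (log2 change 1.16 ± 0.17, adjusted p = 0.000411). The lipid transfer gene rdgB was at 35.9, 39.9 and 38.2 CPM against 189, 172 and 137 CPM (2.12 ± 0.29, adjusted p = 0.000208). The diacylglycerol lipase gene inaE was at 24.0, 34.8 and 16.7 CPM against 108, 45.9 and 70.3 CPM (adjusted p = 0.0161, with up to 0.0854 without SvbACT replicate 1 or control replicates 1 or 3). The gene rdog rose from 5.49, 5.72 and 3.35 CPM to 131, 102 and 129 CPM (4.61 ± 0.38, adjusted p = 1.28e-06). The germline genes fs(1)K10 and c(2)M were higher too: fs(1)K10, which localizes transcripts in the oocyte, was at 46.9, 46.8 and 44.9 CPM against 309, 239 and 316 CPM (2.64 ± 0.23, adjusted p = 1.46e-06), and c(2)M, of the synaptonemal complex, at 2.25, 1.12 and 0 CPM against 13.7, 23 and 17.6 CPM (adjusted p = 0.0118, and 0.0633 without control replicate 2).

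A further formin gene, DAAM, was at 115, 68.6 and 155 CPM in the control and 399, 437 and 350 CPM in SvbACT (log2 change 1.82 ± 0.32, adjusted p = 0.00292), and had a mean of 4.72 CPM in the libraries with the hairpin. The transcription factor gene bab2 rose from 15.2, 10.2 and 16.7 CPM to 126, 84.8 and 122 CPM (3.00 ± 0.34, adjusted p = 3.26e-05). The receptor tyrosine kinase gene Pvr fell from 321, 344 and 345 CPM to 59.1, 82.0 and 102 CPM (-2.06 ± 0.26, adjusted p = 0.000114), and the planar polarity gene pk from 105, 117 and 68.9 CPM to 12.6, 14.7 and 20.1 CPM (-2.62 ± 0.30, adjusted p = 4.06e-05). The circadian clock genes per and Clk were lower by 1.49 ± 0.28 (adjusted p = 0.00441) and 1.34 ± 0.23 (adjusted p = 0.00207) on the log2 scale. Ogdh, of the tricarboxylic acid cycle, was at 611, 607 and 703 CPM against 272, 359 and 284 CPM (-1.07 ± 0.21, adjusted p = 0.00525), and passed with each library left out. Of the isocitrate dehydrogenase subunit genes Idh3b and Idh3g, Idh3b (-0.94, adjusted p = 0.0206) lost the call without any 1 of the 6 libraries (up to 0.109), and Idh3g (-0.93, adjusted p = 0.0188) lost it without control replicates 1 or 2 or SvbACT replicate 2 (up to 0.109).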
